A study of Mus musculus with 6 samples.

Results

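The small leucine-rich proteoglycans are secreted proteins of the extracellular matrix, and 10 of their genes were followed here in the early mouse hindlimb with and without the transcription factor gene Lmx1b. The genes were Kera (keratocan), Lum (lumican), Dcn (decorin), Epyc (epiphycan), Fmod (fibromodulin), Bgn (biglycan), Aspn (asporin), Ogn (osteoglycin), Prelp and Omd (osteomodulin). Every probe set of the array whose annotation gave exactly 1 symbol, equal to a listed gene, was taken. This gave 21 probe sets of 45037 tested, and all 10 genes had at least 1 of them. Of these, 5 probe sets read the Epyc-Kera-Lum-Dcn cluster on chromosome 10, 5 the Omd-Ogn-Aspn cluster on chromosome 13, and 11 the dispersed members, Fmod and Prelp on chromosome 1 and Bgn on the X chromosome. Probe sets were matched by gene name, but the set of genes and its grouping by genomic position were chosen with earlier results of these data known.

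The study compared Lmx1b -/- with wild-type embryos to find genes that LMX1B controls in the hindlimb bud. Both groups were of strain 129Sv at stage E11.5, and each had 3 pools with 1 array per pool. A pool combined the 6 hindlimb buds of 3 embryos, and RNA came from about 500 µm of tissue at the proximal end of each bud. The labels name no allele and no littermate control. The mutation is carried by every cell of the embryo, so the samples do not separate effects within limb mesenchyme from effects elsewhere. Values are the log2 values of RMA, the authors' normalization, and a change is always Lmx1b-null minus wild type with its standard error (SE). P-values are from limma, adjusted over all probe sets tested unless a gene-level fit is named, with a threshold of 0.05.

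These proteoglycans have a curved protein core of leucine-rich repeats that binds collagen, and most carry glycosaminoglycan chains. They regulate the thickness and spacing of collagen fibrils, and several bind growth factors. Decorin, biglycan and asporin form class I of the family. Fibromodulin, lumican, keratocan, PRELP and osteomodulin form class II, and epiphycan and osteoglycin belong to class III. LMX1B is a LIM homeodomain protein that specifies dorsal fate in limb mesenchyme, and it is also needed in the anterior eye, where keratocan and lumican are major products of the corneal stroma.

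The RefSeq promoter table held 9 entries for 8 of the 10 members, with none for Lum or Dcn. Of these entries, 3 are shown to set a member that fell beside others that did not pass the test. Each is the 250 bases before the transcript start in build GRCm38.p6, 5′ to 3′, and capitals mark TAAT, the core sequence bound by many homeodomain proteins, on either strand. Kera, which had the lowest change of all members, lies on the plus strand at chr10:97606955-97607204.
Kera: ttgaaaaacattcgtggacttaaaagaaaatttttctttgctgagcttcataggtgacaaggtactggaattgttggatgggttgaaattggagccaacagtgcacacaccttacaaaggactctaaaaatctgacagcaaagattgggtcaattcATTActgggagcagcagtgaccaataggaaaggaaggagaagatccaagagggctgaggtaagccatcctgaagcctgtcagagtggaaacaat
Ogn, of the chromosome 13 cluster, lies on the plus strand at chr13:49607765-49608014.
Ogn: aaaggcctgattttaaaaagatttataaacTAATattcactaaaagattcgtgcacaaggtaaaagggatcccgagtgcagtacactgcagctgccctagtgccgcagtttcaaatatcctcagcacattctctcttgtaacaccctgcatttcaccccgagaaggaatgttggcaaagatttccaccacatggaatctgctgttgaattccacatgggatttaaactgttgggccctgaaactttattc
Fmod, whose null values all lay above the wild-type values, is on the plus strand at chr1:134037004-134037253.
Fmod: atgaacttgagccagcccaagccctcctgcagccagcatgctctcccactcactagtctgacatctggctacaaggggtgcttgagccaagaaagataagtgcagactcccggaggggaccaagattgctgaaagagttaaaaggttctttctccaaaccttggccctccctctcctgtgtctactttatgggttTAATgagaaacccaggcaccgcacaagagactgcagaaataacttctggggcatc
Each of these 3 windows held 1 TAAT, and 54.9% of all 32851 promoter windows of that length held at least 1. The longer TAATTA, which contains TAAT on both strands, was in 0 of the 9 entries and in 4.84% of all windows. Among the entries not shown, TAAT occurred 3 and 5 times in those of Epyc, 6 times in Aspn, 2 times each in Omd and Prelp, and 0 times in Bgn.

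The Lmx1b transcript itself was read first. Its brighter probe set had 4.62, 4.23 and 4.57 in the null pools, against 8.02, 7.58 and 8.17 in the wild-type pools, so that every pool matched its label. The change was -3.45 (SE 0.16; limma adjusted p = 0.000544). A dimmer Lmx1b probe set averaged 3.92 in the null and 3.93 in the wild-type pools, and which part of the gene either reads relative to the mutation is not known here. The pools differed in another respect. Xist, the RNA that coats the inactive X chromosome in female cells, stood at 9.66, 9.16 and 10.79 in null pools 1 to 3, against 4.68, 9.88 and 4.72 in wild-type pools 1 to 3. Only wild-type pool 2 matched the null pools in this, and limma was therefore also run with Xist as a covariate, and on wild-type pool 2 as the single control of the 3 null pools. The second of these assumes that the lone pool varies like the null pools, and it was chosen after the Xist levels were seen. All 10 limb mesenchyme markers examined, among them Prrx1 (11.07 ± 0.02 in null and 11.20 ± 0.04 in wild-type pools, SD, n = 3 each) and Pitx1 (10.11 ± 0.09 in null and 10.27 ± 0.16 in wild-type pools, SD, n = 3 each), lay far above the array median of 4.98, as the tissue label states.

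Kera fell in the null hindlimb and was the only 1 of the 21 probe sets past the threshold, beside 38 calls among all probe sets (0.0844%), of which 28 were lower (0.0622%). Keratocan is a keratan sulphate proteoglycan best known from the corneal stroma. The probe set 1418063_at read 3.20, 3.28 and 3.27 in the null pools, against 4.75, 5.41 and 5.15 in the wild-type pools. The null values were nearly equal and lay below the lower quartile of all array values (3.33), so the transcript was near the bottom of the measurable range there. The lowest wild-type pool still stood well above the highest null pool. The change was -1.85 (SE 0.15; limma adjusted p = 0.00638), and its 95% confidence interval ran from -2.19 to -1.51. With the null pools at the bottom of the range, the size of the difference is best read as a minimum, and the interval covers only the spread between pools. In bulk tissue, fewer cells that express Kera and less Kera RNA per cell cannot be told apart. With Xist as a covariate the change was -2.14 and the call held (limma adjusted p = 0.0256). Against wild-type pool 2 alone the change was -2.16. Both fits lean on wild-type pool 2, the only wild-type pool with a high Xist level, and are not separate checks. The call was lost without null pool 1, when the adjusted p was 0.0584 and the change still -1.83.

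Lum, the neighbouring proteoglycan gene, had 7.19, 6.80 and 7.18 in the null pools, against 8.04, 8.89 and 8.74 in the wild-type pools (probe set 1423607_at). Lumican is, like keratocan, a class II member that can carry keratan sulphate and that regulates fibril diameter in cornea, skin and tendon. The groups did not overlap, and the signal was well above the bottom of the range in every pool, so that this difference rests on readable values on both sides. The change was -1.50 (SE 0.21; 95% confidence interval -2.00 to -1.01), a 2.83-fold difference, but over all probe sets it did not pass (limma adjusted p = 0.0737). It passed without wild-type pool 1, at a change of -1.76 (adjusted p = 0.00951), with an intensity trend in the variance model (adjusted p = 0.0307) and with array weights (adjusted p = 0.0369). It did not pass under the other 12 of 15 alternatives, where the adjusted p reached 0.272 without null pool 1. With Xist as a covariate the change was -1.86 (adjusted p = 0.178), and against wild-type pool 2 alone it was -1.83 (adjusted p = 0.0967).

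Dcn, at the far side of Lum, showed the same order of groups with a smaller difference. Decorin is a class I member with a single chondroitin or dermatan sulphate chain, and it binds collagen fibrils and TGF-beta. Its brighter probe set, 1449368_at, read 5.94, 5.92 and 6.10 in the null pools, against 6.29, 7.08 and 6.95 in the wild-type pools. Wild-type pool 1 lay only slightly above the highest null pool, whereas wild-type pools 2 and 3 were clearly higher. The change was -0.79 (SE 0.19; 95% confidence interval -1.22 to -0.36) and did not pass (limma adjusted p = 0.262). Without wild-type pool 1 it was -1.03 and passed (adjusted p = 0.0155), and under the other 14 of 15 alternatives it did not, with an adjusted p up to 0.551. The other Dcn probe set, 1441506_at, had 3.42, 3.09 and 3.28 in the null pools, against 3.18, 3.24 and 3.42 in the wild-type pools. It sat near the lower quartile of the array in both groups, with a change of -0.02 that turned in sign under several settings, and says little about the gene.

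Epyc, the outermost gene of the cluster and a product of growth plate cartilage, was near the bottom of the range in every pool. It had 3.08, 2.86 and 3.02 in the null pools, against 3.10, 3.03 and 3.11 in the wild-type pools. The groups overlapped and the change of -0.10 did not pass (SE 0.08; limma adjusted p = 0.724). A lower level in the null pools could hardly have been measured at such values, so whether Epyc differed like its neighbours was not detectable here.

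**Figure D1:**
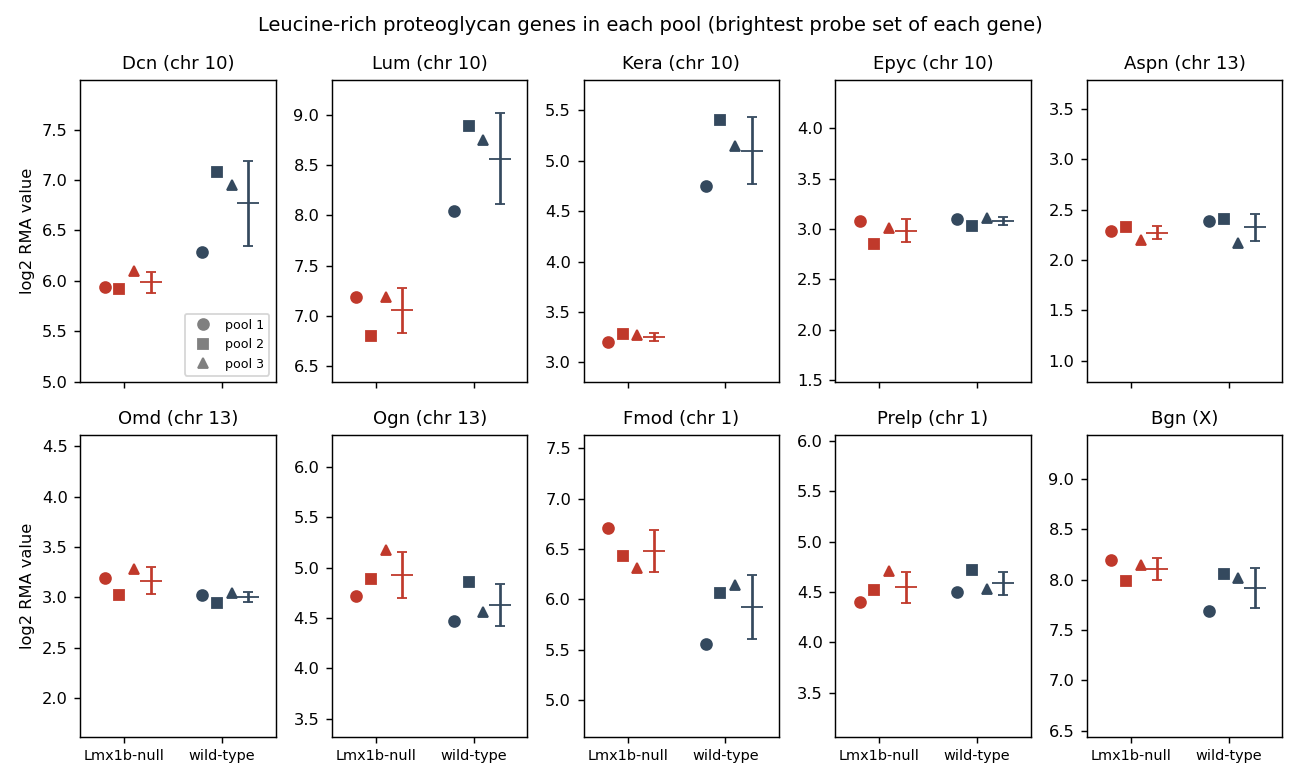
Log2 RMA value of the brightest probe set of each of the 10 genes, with Lmx1b-null pools on the left of each panel and wild-type pools on the right; symbols mark the pool number, bars show mean ± SD over 3 pools, and every panel spans 3 log2 units. The null pools lie below all wild-type pools for Dcn, Lum and Kera and above them for Fmod, and the groups overlap for the other 6 genes.

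In the chromosome 13 cluster no gene passed, and the groups overlapped in all 5 probe sets. Ogn, a class III member first described from bone, was the only gene of the cluster with values above the lower quartile. Its probe set 1419662_at had 4.72, 4.89 and 5.18 in the null pools, against 4.47, 4.86 and 4.56 in the wild-type pools. The other Ogn probe set, 1419663_at, had 4.81, 5.05 and 4.84 in the null pools, against 4.09, 5.19 and 4.54 in the wild-type pools. Wild-type pool 2 lay within or above the null values in both, and wild-type pool 1 was the lowest pool in both. The changes were 0.30 (SE 0.14; limma adjusted p = 0.554) and 0.29 (SE 0.24; limma adjusted p = 0.737). With Xist as a covariate they were 0.03 and -0.22.

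Omd, a keratan sulphate member expressed by bone-forming cells, had 3.19, 3.03 and 3.28 in the null pools, against 3.02, 2.95 and 3.05 in the wild-type pools (change 0.16, SE 0.08; limma adjusted p = 0.581). Aspn, a class I member found in cartilage and periodontal ligament, read 2.29, 2.33 and 2.20 in the null pools, against 2.39, 2.41 and 2.17 in the wild-type pools for the brighter of its probe sets. Omd and Aspn both stayed under the lower quartile in each group's mean, where a difference is hard to measure.

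Among the dispersed members, Fmod showed the opposite order of groups to Kera. Fibromodulin is a keratan sulphate proteoglycan that regulates collagen cross-linking and is abundant in tendon. Its brightest probe set, 1415939_at, had 6.71, 6.43 and 6.31 in the null pools, against 5.56, 6.06 and 6.14 in the wild-type pools. The null pools were above the wild-type pools in all 6 Fmod probe sets, with changes from 0.17 to 0.84. These 6 read 1 gene in the same RNA and are not independent of each other, and 5 carry the suffix _x_at, which the array maker gives to probe sets with probes that can match other transcripts. None passed, with limma adjusted p from 0.231 to 0.494. For 1415939_at the change was 0.56 (SE 0.16; 95% confidence interval 0.18 to 0.94; limma adjusted p = 0.370), 0.38 without wild-type pool 1 and 0.42 against wild-type pool 2 alone. The second probe set, 1456084_x_at, had 6.29, 6.28 and 5.98 in the null pools, against 4.55, 5.75 and 5.72 in the wild-type pools, so its change of 0.84 rests largely on wild-type pool 1 and was 0.45 without it.

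Bgn, the X-linked class I relative of decorin, was read by 3 probe sets. The brightest, 1416405_at, had 8.19, 7.98 and 8.14 in the null pools, against 7.69, 8.05 and 8.02 in the wild-type pools. Wild-type pools 2 and 3 lay among the null pools and wild-type pool 1 below them. The changes of the 3 probe sets were 0.19, 0.11 and 0.09 with limma adjusted p from 0.630 to 0.817, and leaving out wild-type pool 1 gave 0.07, -0.03 and 0.04. With Xist as a covariate the changes were 0.05, -0.04 and 0.05, and against wild-type pool 2 alone 0.05, -0.05 and 0.04. In 1437889_x_at, the dimmest, the null values lay just above the wild-type values. Prelp, a class II member that binds basement membrane and collagen, had 4.41, 4.52 and 4.71 in the null pools, against 4.50, 4.72 and 4.53 in the wild-type pools, and the groups overlapped. Its changes of -0.04 and -0.06 did not pass (limma adjusted p = 0.934 and 0.935), and the 95% confidence interval of the brighter probe set ran from -0.27 to 0.19.

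Over all 21 probe sets, the null pools lay wholly below the wild-type pools in 3 (Kera, Lum and Dcn) and wholly above them in 7 (6 of Fmod and 1 of Bgn), and overlapped in 11. The corresponding shares of all 45037 probe sets were 5.78% below and 8.62% above. With 1 probe set per gene, 3 of the 10 genes were wholly below (5.44% of all genes), 1 was wholly above (9.16% of all genes) and 6 overlapped. By class, the lower genes came from class I (Dcn) and class II (Kera, Lum), and the same classes held Bgn and Fmod with positive changes. The 3 lower genes all lie in the chromosome 10 cluster.

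**Figure D2:**
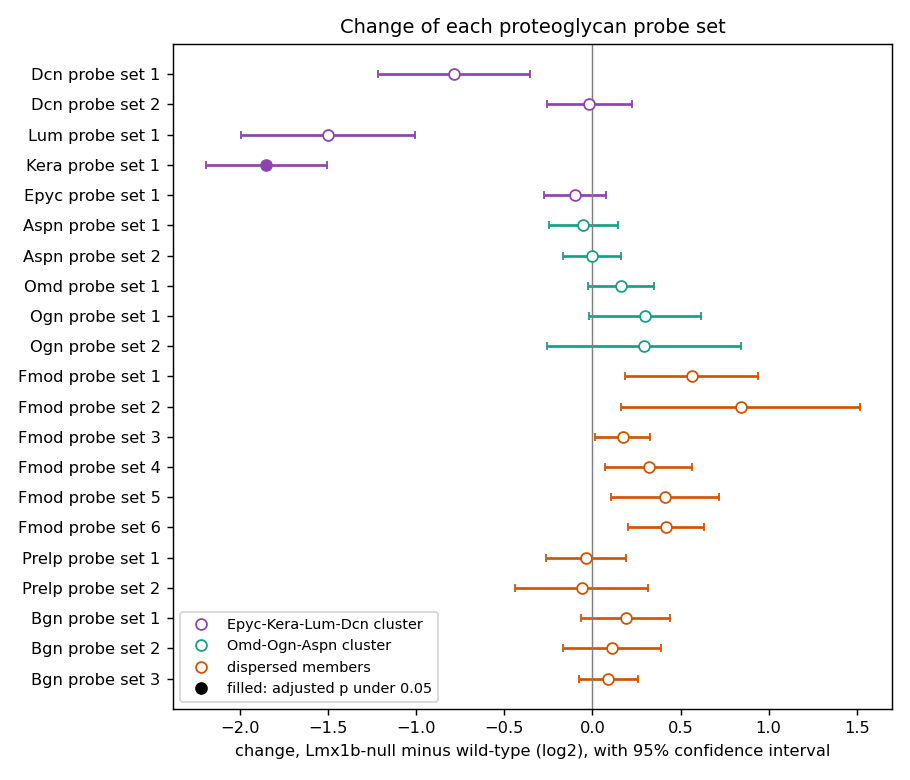
Change of each of the 21 probe sets, log2 difference of Lmx1b-null from wild type, with the 95% confidence interval from limma; probe sets of a gene are numbered from the brightest, colours mark the genomic group, and the filled point passed the threshold. Kera alone is filled at -1.85, Lum and the brighter Dcn probe set lie at -1.50 and -0.79, and the 6 Fmod probe sets lie between 0.17 and 0.84.

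The groups of genes were set side by side as the mean of their genes in each pool, with 1 probe set per gene. For Epyc, Kera, Lum and Dcn this mean was 4.85, 4.71 and 4.89 in the null pools, against 5.54, 6.10 and 5.99 in the wild-type pools, a difference of -1.06 with no overlap. For Omd, Ogn and Aspn it was 3.40, 3.41 and 3.55 in the null pools, against 3.29, 3.41 and 3.26 in the wild-type pools, a difference of 0.14 with a slight overlap. Omd and Aspn were under the lower quartile in each group's mean, so a fall in this cluster could be read mainly through Ogn. For Fmod, Bgn and Prelp it was 6.44, 6.31 and 6.39 in the null pools, against 5.92, 6.28 and 6.23 in the wild-type pools, a difference of 0.24 with the null pools just above. The chromosome 10 mean minus the chromosome 13 mean was 1.45, 1.30 and 1.34 in the null pools, against 2.25, 2.70 and 2.73 in the wild-type pools. The chromosome 10 mean minus the dispersed mean was -1.59, -1.60 and -1.50 in the null pools, against -0.37, -0.18 and -0.24 in the wild-type pools. In both contrasts all null pools lay below all wild-type pools, and no test was made of these means because the gene groups were not chosen blind to these data. The median change was -1.14 in the chromosome 10 cluster, 0.16 in the chromosome 13 cluster and 0.19 among the dispersed genes, beside 0.02 over all 18193 genes.

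**Figure D3:**
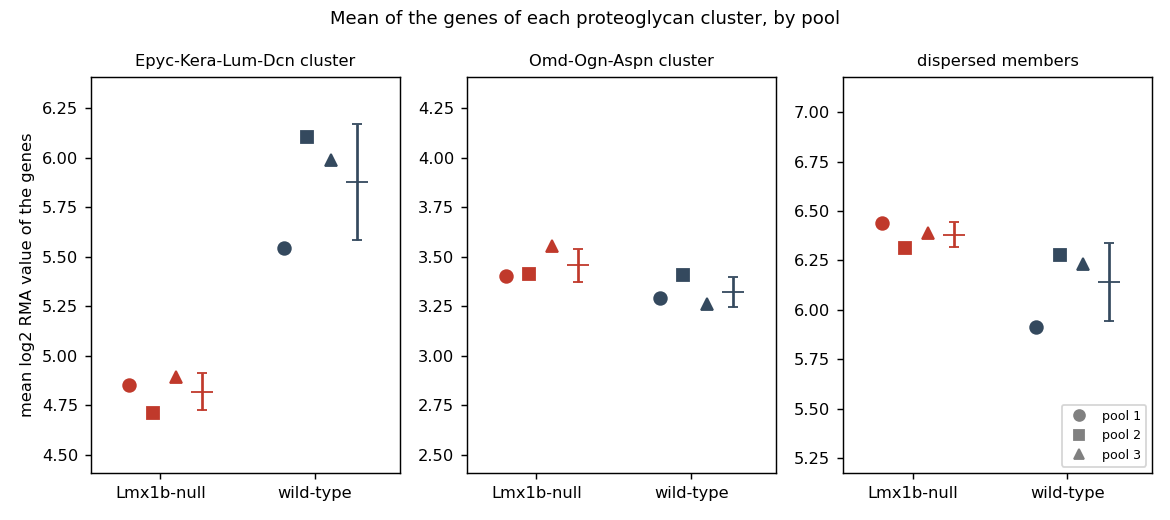
Mean log2 RMA value of the genes of each group in each pool, with Lmx1b-null pools left and wild-type pools right; symbols mark the pool number, bars show mean ± SD over 3 pools, and each panel spans 2 log2 units. Null and wild-type pools are apart in the Epyc-Kera-Lum-Dcn panel (difference -1.06) and close together in the other panels (0.14 and 0.24), and wild-type pool 1 is the lowest wild-type pool for the Epyc-Kera-Lum-Dcn and the dispersed genes. Omd and Aspn had means under the lower quartile of all array values in both groups. The Omd-Ogn-Aspn panel could therefore show a fall mainly through Ogn.

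Wild-type pool 1 was the lowest of the wild-type pools in 16 of the 21 probe sets, against 37.9% of all probe sets, but 6 of these 16 read Fmod and 3 read Bgn in the same RNA. By the brightest probe set it was lowest for 7 of the 10 genes, against 43.1% of all genes. It thus lay on the null side for Kera, Lum and Dcn and away from the null pools for Fmod, Ogn and Bgn. Leaving it out moved the mean change to -1.23 in the chromosome 10 cluster and to 0.12 among both the chromosome 13 and the dispersed genes. With it left out, 3 member genes passed at gene level, Kera, Lum and Dcn, whereas without null pool 1 none did.

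The genes around both clusters were read to see how far the difference reached along the chromosome. The 5 nearest genes on each side with a named probe set were taken, in the order of the RefSeq table for GRCm38.p6. Of the 10 neighbours of the chromosome 10 cluster none passed in the gene-level fit (limma adjusted p of 0.263 or more), and 2 had an unadjusted p under 0.05, both of them higher in the null pools (5.92% of all genes were higher and 3.88% lower at that level). Their changes ran from -0.48 for Eea1, an endosomal tethering protein gene, to 0.25 for 4930459C07Rik, with a median of 0.02. The nearest named gene on each side had means under the lower quartile of all array values. These were 4930556N09Rik (3.22 in null and 3.13 in wild-type pools) and Ccer1 (2.37 in null and 2.29 in wild-type pools). The same held for 4930459C07Rik (3.13 in null and 2.89 in wild-type pools). A fall in these genes could hardly have been measured. Eea1 had 5.15, 5.28 and 5.60 in the null pools, against 6.28, 5.93 and 5.24 in the wild-type pools, and the groups overlapped. Dusp6, which encodes a phosphatase that limits ERK signalling, had 9.77, 9.70 and 9.51 in the null pools, against 9.46, 9.40 and 9.47 in the wild-type pools, but its change of 0.22 did not pass (limma adjusted p = 0.451).

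Within the cluster the noncoding transcript 4930473O22Rik, which lies between Lum and Kera, was not lower in the null pools. It had 4.02, 3.68 and 3.92 in the null pools, against 3.43, 3.48 and 3.70 in the wild-type pools. The null pools were on the whole the higher ones, with a small overlap. Its change of 0.33 did not pass (SE 0.11; 95% confidence interval 0.09 to 0.58; gene-level limma adjusted p = 0.408). On the other flank, beyond Epyc, Atp2b1, a plasma membrane calcium pump gene, had a change of -0.20 (SE 0.11; gene-level limma adjusted p = 0.579). Around the chromosome 13 cluster 0 of 10 neighbours passed in limma and 1, 4930518P08Rik, was higher at an unadjusted p under 0.05 (beside the same 5.92%), with changes from -0.42 for Nol8, a nucleolar protein gene, to 0.18 for 4930518P08Rik. Ecm2, a further leucine-rich repeat matrix gene beside Aspn, was at 2.98 in null and 2.96 in wild-type pools, near the bottom of the range.

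**Figure D4:**
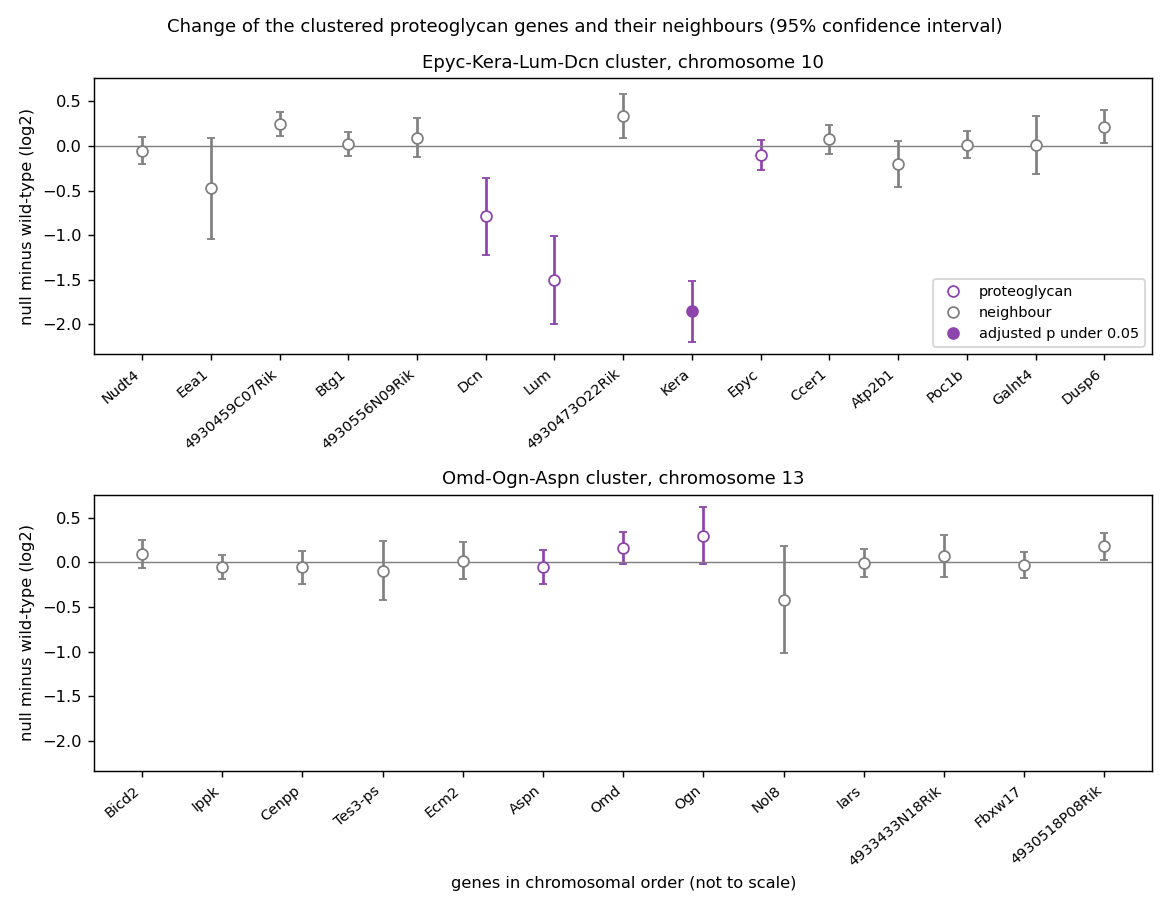
Gene-level log2 difference of Lmx1b-null from wild type, with the 95% confidence interval, for the genes of both clusters (purple) and, in grey, the 5 named genes on each side and 4930473O22Rik within the cluster, in chromosomal order and not to scale. Dcn, Lum and Kera lie at -0.79, -1.50 and -1.85, while the 10 neighbours of their cluster lie between -0.48 and 0.25 and none of them passed the threshold. Among these neighbours, 4930459C07Rik, 4930556N09Rik and Ccer1 had means under the lower quartile of all array values, where a fall could hardly have been measured.

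The genes whose 6 pool values ran most like those of Kera, Lum and Dcn were found among 11101 genes with a mean at or above the array median in at least 1 group, using Pearson's r over the 6 pools. These coefficients are descriptions, since all points share the difference between the groups. For Kera they were Calb2, which encodes calretinin (r = 0.992), the angiotensin receptor gene Agtr2 (0.987), the oxysterol-binding protein gene Osbpl3 (0.987) and the semaphorin gene Sema3d (0.986). For Lum they were the netrin gene Ntn1 (0.995), Agtr2 (0.993), the basic helix-loop-helix gene Atoh8 (0.993) and Slitrk5 (0.992), which encodes a neuronal transmembrane protein with leucine-rich repeats. For Dcn they were Kat6a (0.991), Pmp22 (0.984), the lysyl oxidase gene Lox (0.983) and Zscan26 (0.983). Agtr2 stood in the lists of both Kera and Lum, with a change of -0.95 (SE 0.12; gene-level limma adjusted p = 0.0473). Calb2 (-3.36, SE 0.20; gene-level limma adjusted p = 0.000745) and Sema3d (-0.58, SE 0.06; gene-level limma adjusted p = 0.0282) also passed. The other genes of these lists did not. A high coefficient did not need a large change, as Kat6a differed between the groups by only -0.05.

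Genes that act with these proteoglycans were grouped into 8 lists. Of 113 such genes, 0 passed in the gene-level limma fit, beside 0.104% of all genes. At an unadjusted p under 0.05, 12 were lower (10.6%, beside 3.88% of all genes) and 10 were higher (8.85%, beside 5.92%). The median change was 0.01. The 9 fibrillar collagens, to which these proteoglycans bind, had a median change of 0.07. Of these, 6 were above and 3 below 0, beside 43.0% of all genes below 0. Col3a1 had the smallest p among them, at 12.84 ± 0.05 in null and 12.68 ± 0.13 in wild-type pools (SD, n = 3 each; gene-level limma adjusted p = 0.555). Col1a2, which encodes a chain of type I collagen, had a change of 0.25 (SE 0.13; gene-level limma adjusted p = 0.558).

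Of 15 fibril-associated matrix genes, 8 were below and 7 above 0, beside 43.0% of all genes below 0. Lox, which encodes the enzyme that starts collagen cross-linking, had 5.77, 5.72 and 5.67 in the null pools, against 6.20, 7.19 and 7.19 in the wild-type pools. Its change of -1.15 did not pass (SE 0.24; gene-level limma adjusted p = 0.204), but it passed without wild-type pool 1 and against wild-type pool 2 alone. The fibronectin gene Fn1 was at 0.24 (gene-level limma adjusted p = 0.425). Among 6 other leucine-rich proteoglycan genes, 5 had changes above 0, beside 10369 of all 18193 genes, and the median was 0.15. Podn, podocan, read 6.03 ± 0.03 in null and 5.84 ± 0.06 in wild-type pools (SD, n = 3 each; gene-level limma adjusted p = 0.396). Nyx, nyctalopin, was at 0.25 (gene-level limma adjusted p = 0.510).

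None of the enzymes that build the glycosaminoglycan chains passed in limma. The 21 genes of chain linkage and of chondroitin or dermatan sulphate had a median change of -0.01. At an unadjusted p under 0.05, 3 were lower (14.3%, beside 3.88% of all genes) and 0 were higher (beside 5.92%). The 3 included the sulphotransferase gene Chst15 (-0.29, SE 0.09; gene-level limma adjusted p = 0.396) and the chain-starting enzyme gene Csgalnact2 (-0.15, SE 0.06; gene-level limma adjusted p = 0.487). The 11 keratan sulphate genes, whose products modify keratocan, lumican and fibromodulin, had a median of 0.01 and changes between -0.10 and 0.18. Chst2, a keratan sulphate sulphotransferase gene, was at 0.17 (SE 0.06; gene-level limma adjusted p = 0.451), and the galactosyltransferase gene B4galt4 at 0.17 (SE 0.08; gene-level limma adjusted p = 0.535).

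Proteases and other proteoglycans held larger single differences than these enzymes, though none as large as that of Lox. Adamts20, a versican-cleaving protease gene, had 6.52, 6.27 and 6.46 in the null pools, against 6.87, 7.17 and 7.01 in the wild-type pools. The groups did not overlap, and the change was -0.60 (SE 0.10; gene-level limma adjusted p = 0.105). Adamts15, a protease gene of the same family, was at -0.52 (gene-level limma adjusted p = 0.296). Sdc2, the cell surface proteoglycan syndecan 2, had 6.74, 6.66 and 6.66 in the null pools, against 7.09, 7.82 and 7.39 in the wild-type pools, a change of -0.75 (SE 0.16; gene-level limma adjusted p = 0.218) that passed against wild-type pool 2 alone. Ncan, neurocan, was at 0.31 (gene-level limma adjusted p = 0.288). Of 18 growth factor and receptor genes whose products bind decorin or biglycan, Bmp4 had the smallest p, with a change of -0.28 (SE 0.08; gene-level limma adjusted p = 0.338). The VEGF receptor gene Kdr was at -0.22 (gene-level limma adjusted p = 0.496), and the median of the list was 0.07.

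Markers of other cell types were read beside these values, and of all lists only 1 gene passed in limma, the cartilage marker Cnmd. Over all genes, 43.0% had a change below 0. The mean of 7 cartilage progenitor markers ran from 6.72 to 6.80 in the null pools, against 6.89 to 7.24 in the wild-type pools, and 6 of the 7 had changes below 0. Cnmd, chondromodulin, fell by 1.76 (gene-level limma adjusted p = 0.0354) and carries most of that gap, since the median change of the list was -0.09. Wild-type pool 1 was the lowest wild-type pool there, as it was for Kera, Lum and Dcn. This was not particular to cartilage. The same held for the limb mesenchyme, muscle, neuron, tendon, surface ectoderm, macrophage and Schwann cell lists. It did not hold for the endothelial and blood lists. The mean of 5 tendon progenitor markers lay between 4.69 and 4.71 in the null pools, against 4.59 to 4.75 in the wild-type pools, and Tnmd was under the lower quartile in both groups. The mean of 9 muscle markers was 6.40 to 6.52 in the null pools, against 5.88 to 6.37 in the wild-type pools, and 8 of the 9 had changes above 0, with a median of 0.32. The mean of 8 endothelial markers was 6.71 to 6.73 in the null pools, against 6.83 to 6.99 in the wild-type pools, with all 8 below 0. Limb mesenchyme markers were at 9.88 to 9.97 in the null pools, against 9.93 to 10.03 in the wild-type pools. Means of the markers of neurons were 5.39 to 5.42 in the null pools, against 4.98 to 5.33 in the wild-type pools. All 7 changes were above 0, with a median of 0.13 and a largest of 0.96. In the muscle and neuron lists, wild-type pools 2 and 3 lay nearer the null pools than wild-type pool 1 did. The remaining lists, of surface ectoderm, blood, macrophages and Schwann cells, had overlapping pool means. The markers Hba-a1, Aif1 and Matn1 were, like Tnmd, under the lower quartile in both groups. The part of these cell types in the proteoglycan values was not tested.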

How the data were processed

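Gene expression was measured in 6 pools, 3 Lmx1b-null and 3 wild-type, on 1 array each. The table deposited by the authors holds RMA values per the submitters' processing notes, in a version not given in the sources used here. These deposited values were read as log2, the scale on which RMA works, although no label states the base. RMA gives the probes of the arrays a common distribution before the probes are combined into probe set values. It compresses differences near the bottom of the range. Of 45101 probe sets, 64 controls were left out. In the platform annotation 34945 of the rest had 1 symbol, 932 several and 9160 none. A linear model was fitted with limma 3.58.1 in R 4.3.3 (lmFit, eBayes) with Benjamini-Hochberg adjustment. The gene-level fit used the probe set with the highest mean for each of 18193 genes. The fit was also run on simulated data with independent normal noise, only as a check of the code, and no result here rests on it. Pools of separate embryos were the replicates, and their number limits the precision (median SE 0.0843). The alternatives were the variance model, the normalization, a filter on dim probe sets, array weights, the pool number as a block, Xist, and leaving out each pool. The members and lists were chosen with earlier results of these data known. Named genes were all members, the 2 genes with the smallest p in each list, the 5 nearest named genes on each side of a cluster (those with extreme or small-p values, or in the cluster's span, are given values), the 4 genes most like Kera, Lum and Dcn, and, outside that rule, some markers.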

Additional observations from a re-analysis of the deposited data

How the results depend on the processing

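The values rest on 6 arrays, and RMA values near the lower quartile of 3.33 limit what can be said of Epyc, Omd and Aspn. The changes of the 21 probe sets were recomputed 305 times in all, and 284 kept their direction and their side of the threshold. For those that moved, the cause was not tested. Against 38 probe sets and 19 genes past the threshold, 94 and 36 passed with an intensity trend and 14 and 9 with the pool number as a replicate block. Xist as a covariate left 9 and 5, and wild-type pool 2 as the only control, an alternative chosen after seeing the data, 10 and 11. Bright probe sets alone gave 23 probe sets, array weights 69, and an adjusted p under 0.1 gave 99. Leaving out 1 pool gave 13 to 38 probe sets and 4 to 37 genes. The member count of 1 (Kera) became 2, for probe sets and for genes, with an intensity trend, with array weights and at an adjusted p under 0.1, and ran from 0 to 3 with 1 pool left out. Of the list genes, 0 passed as reported, 0 to 2 with 1 pool left out (Bmp2 and Lox without wild-type pool 1) and 2 with wild-type pool 2 alone (Lox and Sdc2). The replicate block changed no call of a member. Pools of the same number had correlated deviations of -0.239, -0.0878 and -0.168, so numbers were not taken as pairs. The mean change of the chromosome 10 cluster was -1.29 with Xist as a covariate and -1.28 with only wild-type pool 2 as control, and that of the chromosome 13 cluster 0.033 and 0.049. Signs turned only among changes that passed nowhere. The dimmer Dcn probe set was at 0.00041 with array weights and 0.022 against wild-type pool 2 alone, and from -0.094 to 0.071 with 1 pool left out. Ogn 1419663_at was at -0.22 with Xist and -0.29 with wild-type pool 2 alone, and Bgn 1448323_a_at at -0.044 and -0.054, or from -0.031 to 0.19 with 1 pool left out. With 1 pool left out the dimmer Aspn probe set ran from -0.039 to 0.051, and the Prelp probe sets from -0.12 to 0.033 and from -0.17 to 0.11.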
